A study of Mus musculus with 73 samples.

Results

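The epiblast of mouse embryos in which Eed had been disrupted was compared with wild-type epiblast at embryonic day 6.5. The comparison used the 9 epiblast libraries titled for Eed and the 7 epiblast libraries titled for the wild-type cross, which together are 16 of the 72 RNA libraries of the series. Each library came from the epiblast of 1 embryo, of roughly 300 to 600 cells per the labels, after the visceral endoderm had been stripped off. All 16 embryos had a BDF1 mother and a CAST father and were made by injecting CAST sperm into BDF1 oocytes, so that reads over strain polymorphisms can be assigned to the maternal (BDF1) or paternal (CAST) allele. The Eed embryos (5 male, 4 female) also received Cas9 mRNA and 3 to 4 guide RNAs against different exons of the gene as pronuclear zygotes. The labels give the wild-type embryos (4 male, 3 female) no disruption and do not say whether they were injected with Cas9. Each knockout embryo was edited separately, and the alleles it carries are not given in the labels, so an embryo can hold a mixture of edited alleles. For scale, values are also given for wild-type epiblast of the reciprocal cross (CASTxBDF1, 4 embryos from natural mating), for epiblast of the same BDF1xCAST cross after disruption of G9a-Glp (6 embryos), Dnmt1 (3) or Rnf2 (6), and for wild-type BDF1xCAST extraembryonic ectoderm (ExE, 7).

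Eed is a core subunit of Polycomb repressive complex PRC2. PRC2 places methyl groups on lysine 27 of histone H3, and Eed binds that mark and stimulates the catalytic subunits Ezh2 and Ezh1. In the early embryo the mark covers CpG-rich promoters of developmental regulators, among them the Hox clusters, before the tissues that use them have formed. It also marks the maternal copy of a small set of genes whose imprint does not rest on DNA methylation of the egg, which are called noncanonical imprinted genes.

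Eed RNA was low in every embryo labelled as its knockout. Eed (chromosome 7, 89954654 to 89981419, mm10) had 2.88, 7.899 and 20.3 reads per 1000000 autosomal reads of the library (CPM; lowest, median and highest) in the 9 Eed embryos and 38.8, 178 and 210.1 CPM in the 7 wild-type embryos. The groups did not overlap, and wild-type embryo 8 was far below the other 6 wild-type embryos. The mean was 5.96% of the wild-type mean, a log2 fold change of -4.21 ± 0.34 (SE; edgeR adjusted p = 7.32e-08). Of the other PRC2 subunits, Aebp2 fell (-0.58 ± 0.15, edgeR adjusted p = 0.00618) and Ezh1, the catalytic subunit of non-dividing tissues, rose (0.78 ± 0.23, edgeR adjusted p = 0.0113). Jarid2, which helps to bring the complex to its targets, passed narrowly (-0.42 ± 0.15, edgeR adjusted p = 0.0402). It no longer passed in 10 of 23 alternatives, among them leaving out Eed embryo 4, 6, 9 or 10 or wild-type embryo 4, 6 or 8. Ezh2 had 144, 154 and 228 CPM against 128, 185 and 211 CPM, with overlap, and did not pass (edgeR adjusted p = 0.0678), but passed as lower without Eed embryo 10 or without wild-type embryo 8 (edgeR adjusted p = 0.0287 and 0.00515). Suz12, Rbbp4 and Mtf2 did not pass either, at log2 fold changes of -0.26 ± 0.20, -0.26 ± 0.13 and -0.38 ± 0.15, although Mtf2 passed without Eed embryo 1 or without wild-type embryo 2 or 8 (edgeR adjusted p = 0.04196, 0.0475 and 0.00396). Against the other knockouts described below, Ezh2 (-0.34 ± 0.10) and Mtf2 (-0.56 ± 0.11) were lower (edgeR adjusted p = 0.0375 and 0.00177).

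Before the gene groups, 3 features of the libraries bear on every result. Autosomal reads over polymorphisms ranged from 1386520 to 3422027 in the Eed embryos and from 1288977 to 2956636 in the wild type. Wild-type embryo 8 had the fewest reads of its group but reads in 19951 genes, against 13750 to 14609 in the other 6 wild-type embryos and 13946 to 16570 in the Eed embryos. The number of calls was large: 1845 of 9514 genes tested rose (19.4%) and 1589 fell (16.7%), 36.1% in all. Many of these genes stood at a similar level in the other knockouts. Polr2a, the largest subunit of RNA polymerase II, had 9.68, 18.97 and 59.3 CPM in the Eed embryos and 0, 1.23 and 2.61 CPM in the wild type, but also 34.99 ± 11.8 CPM (mean ± SD) in G9a-Glp, 27.6 ± 5.11 in Dnmt1 and 21.8 ± 7.81 in Rnf2 knockouts, against 1.13 ± 0.803 in the reciprocal wild type. Rises followed gene length: 30.5% of the shortest quintile of tested genes rose and 10.8% of the longest. Falls did not, at 17.2% and 15.6%, and against the other knockouts described next 8.58% and 7.31% were higher. Levels of all Eed embryos lay above all wild-type embryos for 587 tested genes (6.17%) and below them for 119 (1.25%). These levels are CPM without the library scaling factors (TMM) that the test uses. Those factors were 0.994 to 1.11 in Eed, 0.905 to 0.945 in 6 wild-type embryos and 1.06 in wild-type embryo 8. Without them, Eed levels stand higher against those 6 wild-type embryos than in the test, in every statement of overlap. A difference that sets the knockout libraries apart from the wild-type libraries and the loss of Eed itself cannot be told apart in the comparison with the wild type.

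A second comparison was therefore added after the data were seen, of the 9 Eed embryos with the 9 G9a-Glp and Dnmt1 embryos, which share the cross and the zygote injection. It called 765 of 10950 genes higher in Eed (6.99%) and 362 lower (3.31%), 10.3% in all. Levels did not overlap for 104 higher (0.95%) and 29 lower genes (0.265%). Of 9507 genes tested in both, 328 rose against the wild type and were also higher than in the other knockouts (3.45%), and 63 fell and were lower (0.663%). Both comparisons use the same 9 Eed libraries, and G9a-Glp and Dnmt1 embryos have changes of their own. Rnf2 embryos are not part of the second comparison, so the other knockouts below are G9a-Glp and Dnmt1 only. The median log2 fold change over all tested genes was 0.01 against the wild type and 0.02 against the other knockouts. In bulk libraries, fewer cells of a type and less RNA per cell cannot be told apart.

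**Figure D1:**
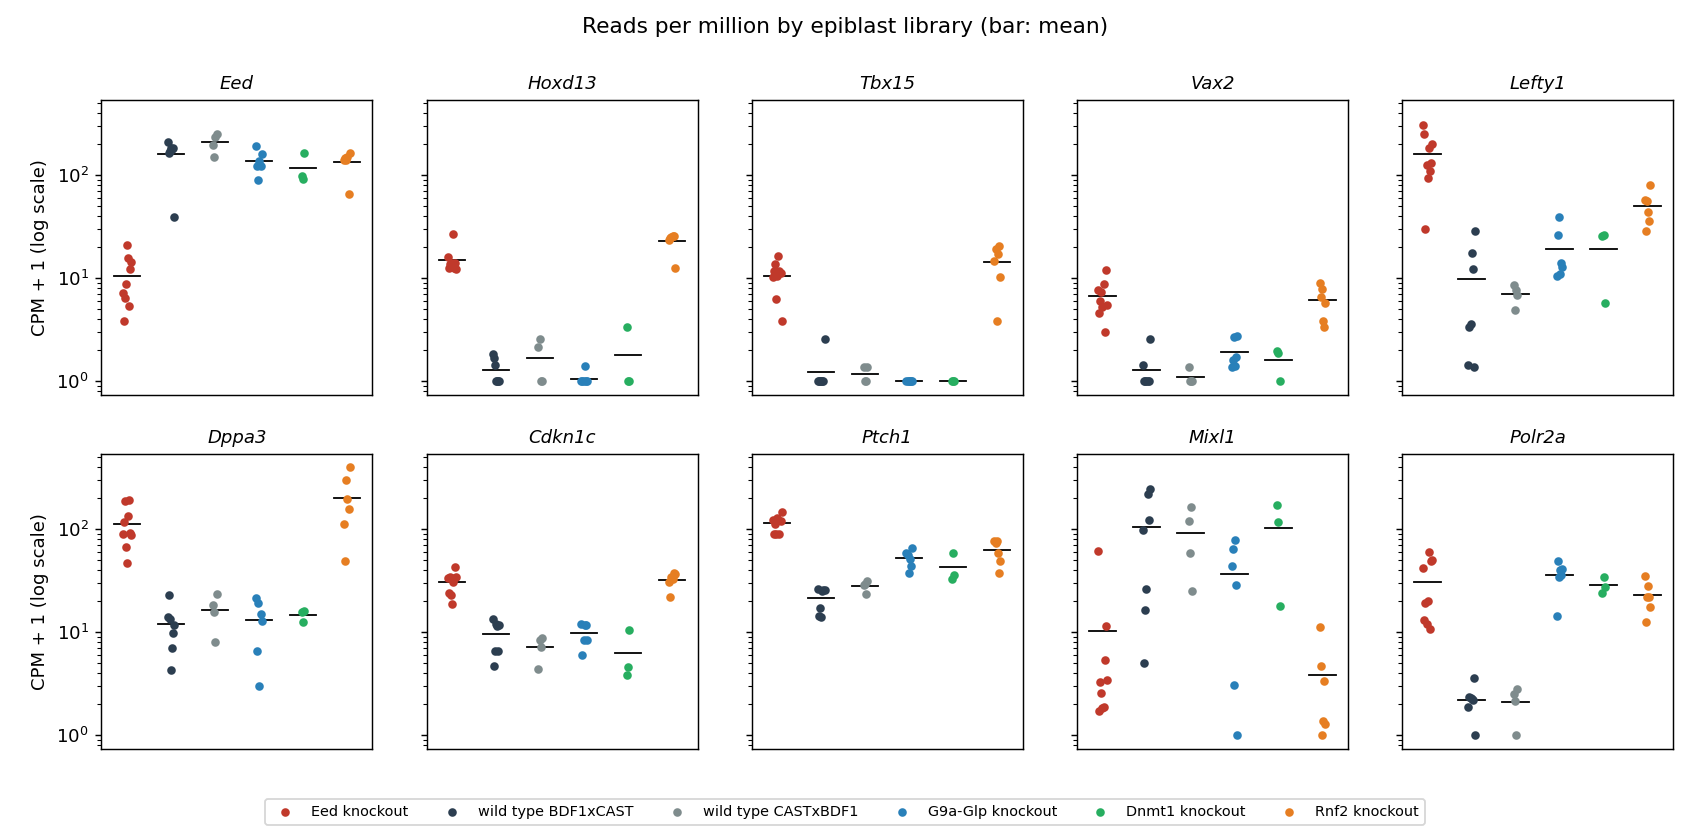
Level of 10 genes in each epiblast library, as CPM + 1 on a log scale; each point is 1 embryo, bars are group means, and colours are the 6 groups. Hoxd13, Tbx15, Vax2, Dppa3 and Cdkn1c are higher in Eed embryos than in every wild-type, G9a-Glp and Dnmt1 library, whereas Polr2a is at a similar level in all 4 knockouts and low in both wild-type crosses.

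Hox genes were read at low levels in Eed epiblast and hardly at all in the wild type. Hox genes encode the transcription factors that give cells their position along the body axis, and at this stage most are normally silent. Of 35 listed Hox genes in the table, 26 had at least 1 read in the Eed embryos and 11 in the wild type. Their summed level was 32.6, 47.6 and 80.4 CPM in Eed and 1.65, 4.44 and 20.2 CPM in the wild type, with no overlap. Only 2 Hox genes passed the filter on low counts, and they passed through the Eed group, where they were high, so their calls carry no weight as a count. Without that filter, 9 of 26 rose, against 8.32% of all genes tested in that fit, of which 8.16% fell. Against the other knockouts, 5 of 5 that passed the filter there were higher, again through the Eed reads. Rnf2 embryos, which lack the catalytic subunit of the companion complex PRC1, had Hox sums of 61.5 to 156 CPM.

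Hoxd13 (chromosome 2, 74668310 to 74671599), the last gene of its cluster and a limb and genital patterning factor, had 11.4, 12.7 and 25.7 CPM in Eed embryos and 0, 0 and 0.865 CPM in the wild type. Every Eed embryo was above every wild-type embryo, and Eed embryo 6 was the highest. The log2 fold change was 5.17 ± 0.46 (edgeR adjusted p = 3.20e-07) and 5.28 ± 0.47 against the other knockouts (edgeR adjusted p = 6.88e-08). Hoxa9 (chromosome 6, 52223097 to 52227370), a posterior Hox gene, had 2.002, 4.59 and 6.72 CPM in Eed and no read in any wild-type embryo, so it was at least 24.9-fold higher, taking 3 reads over the whole group as the limit that a count of 0 allows. Hoxd9 and Hoxd11 also had no wild-type read, and means of 5.101 and 3.699 CPM in Eed put them at least 28.02-fold and 20.3-fold higher by the same limit. Hoxd10 had 3.48 CPM in Eed and 0.222 in the wild type, where all its reads came from embryo 8. Hoxb1, which is used in the primitive streak, went the other way in its means, with 1.24 CPM in Eed and 3.08 in the wild type, and did not pass without the filter (edgeR adjusted p = 0.1903). Rnf2 embryos had 21.9 ± 5.19 CPM of Hoxd13.

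The start-site windows of 3 of the Hoxd genes that were read in Eed embryos are shown. These genes lie in 1 cluster on chromosome 2 and rose together in the fit without the filter. Hoxd8 and Hoxd11 of that cluster, and Hoxa7, Hoxb2 and Hoxb7, also rose there, and their windows are not printed. Each window shown is 300 bases around a start site, from RefSeq on GRCm38.p6, plus strand, with every CpG dinucleotide (CG) in capitals.
Hoxd13, chr2:74667975-74668274: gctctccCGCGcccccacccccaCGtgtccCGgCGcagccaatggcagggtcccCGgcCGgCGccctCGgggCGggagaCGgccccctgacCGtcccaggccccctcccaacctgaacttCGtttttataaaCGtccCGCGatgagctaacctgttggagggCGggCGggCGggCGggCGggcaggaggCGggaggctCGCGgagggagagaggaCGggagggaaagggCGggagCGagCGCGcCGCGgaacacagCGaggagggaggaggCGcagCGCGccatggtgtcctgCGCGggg
Hoxd10, chr2:74691641-74691940: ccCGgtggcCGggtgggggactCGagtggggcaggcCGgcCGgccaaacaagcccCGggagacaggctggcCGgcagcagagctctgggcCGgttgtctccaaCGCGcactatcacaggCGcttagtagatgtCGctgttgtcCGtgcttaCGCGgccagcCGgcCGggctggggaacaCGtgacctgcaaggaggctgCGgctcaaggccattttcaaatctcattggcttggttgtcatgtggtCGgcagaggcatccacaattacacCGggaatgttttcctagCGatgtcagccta
Hoxd9, chr2:74697513-74697812: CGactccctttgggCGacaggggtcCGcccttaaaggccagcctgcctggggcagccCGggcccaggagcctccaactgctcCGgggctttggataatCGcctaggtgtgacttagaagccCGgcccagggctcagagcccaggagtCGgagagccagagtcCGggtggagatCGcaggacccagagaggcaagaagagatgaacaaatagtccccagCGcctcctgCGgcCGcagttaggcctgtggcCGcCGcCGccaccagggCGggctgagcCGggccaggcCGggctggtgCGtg
These windows hold 37, 22 and 20 CG dinucleotides, against a median of 7 over 32851 windows. Of all windows, 5.58%, 23.1% and 26.5% hold as many. Of other Hox genes that rose in that fit, Hoxa9 has 4 in its window, and the 2 windows of Hoxd11, in the same cluster, have 4 and 25. A comparison of promoter composition over all genes that rose is void, because only 78.8% of tested genes had a window.

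Several other developmental transcription factors rose in Eed epiblast. Of 151 listed factors in the table, 18 were tested, and 12 rose and 3 fell, with a median log2 fold change of 2.37. Factors silent in the wild type could enter the test only through Eed reads. Without the filter, 29 of 139 rose and 5 fell, beside 8.32% and 8.16% of all genes in that fit. Against the other knockouts, 22 of 28 were higher, beside 6.99% of all genes. Factors silent in those knockouts could likewise enter that test only through Eed reads, so for them this count carries no weight. The summed level of the list was 295 to 462 CPM in Eed and 74.4 to 238 CPM in 6 wild-type embryos, but 683 CPM in wild-type embryo 8. Without that embryo 14 of 21 factors rose and 1 fell, beside 22.6% and 18.4% of all genes. Eed embryo 8, which had the most reads of ExE markers in its group, had a sum of 356 CPM here.

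Tbx15 (chromosome 3, 99240349 to 99354260), a T-box factor of skeletal development, had 2.86, 10.2 and 15.5 CPM against 0, 0 and 1.55 CPM, and its only wild-type reads came from embryo 8. Its log2 fold change was 5.64 ± 0.64 (edgeR adjusted p = 4.49e-06), and no read was found in any G9a-Glp or Dnmt1 embryo, while Rnf2 embryos had 13.3 ± 6.25 CPM. Vax2, an eye patterning factor, rose by 4.44 ± 0.64 and Nkx2-9, a factor of the ventral neural tube, by 3.98 ± 0.56 (edgeR adjusted p = 3.73e-05 and 3.11e-05). Dmrt3 rose by 3.57 ± 0.55 (edgeR adjusted p = 7.32e-05). Tal1, the master regulator of blood formation, had 10.3, 13.7 and 21.2 CPM against 0, 0.823 and 3.103 CPM and rose by 3.52 ± 0.42 (edgeR adjusted p = 7.23e-06), and was named after its values were seen. The listed blood markers, in contrast, summed to at most 10.6 CPM in any Eed embryo, and none was tested. Tbx15, Vax2, Nkx2-9, Dmrt3 and Tal1 were all higher than in the G9a-Glp and Dnmt1 embryos too, without overlap. Rnf2 embryos, which are outside that comparison, had 6.90 to 18.2 CPM of Dmrt3, beside 2.16 to 7.68 CPM in Eed. Sox9, an abundant listed factor that did not pass against the wild type, had a log2 fold change of -0.04 ± 0.30. It was highest in wild-type embryo 8 among the wild type, and higher in Eed than in the other knockouts (1.42 ± 0.34, edgeR adjusted p = 0.00659).

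**Figure D2:**
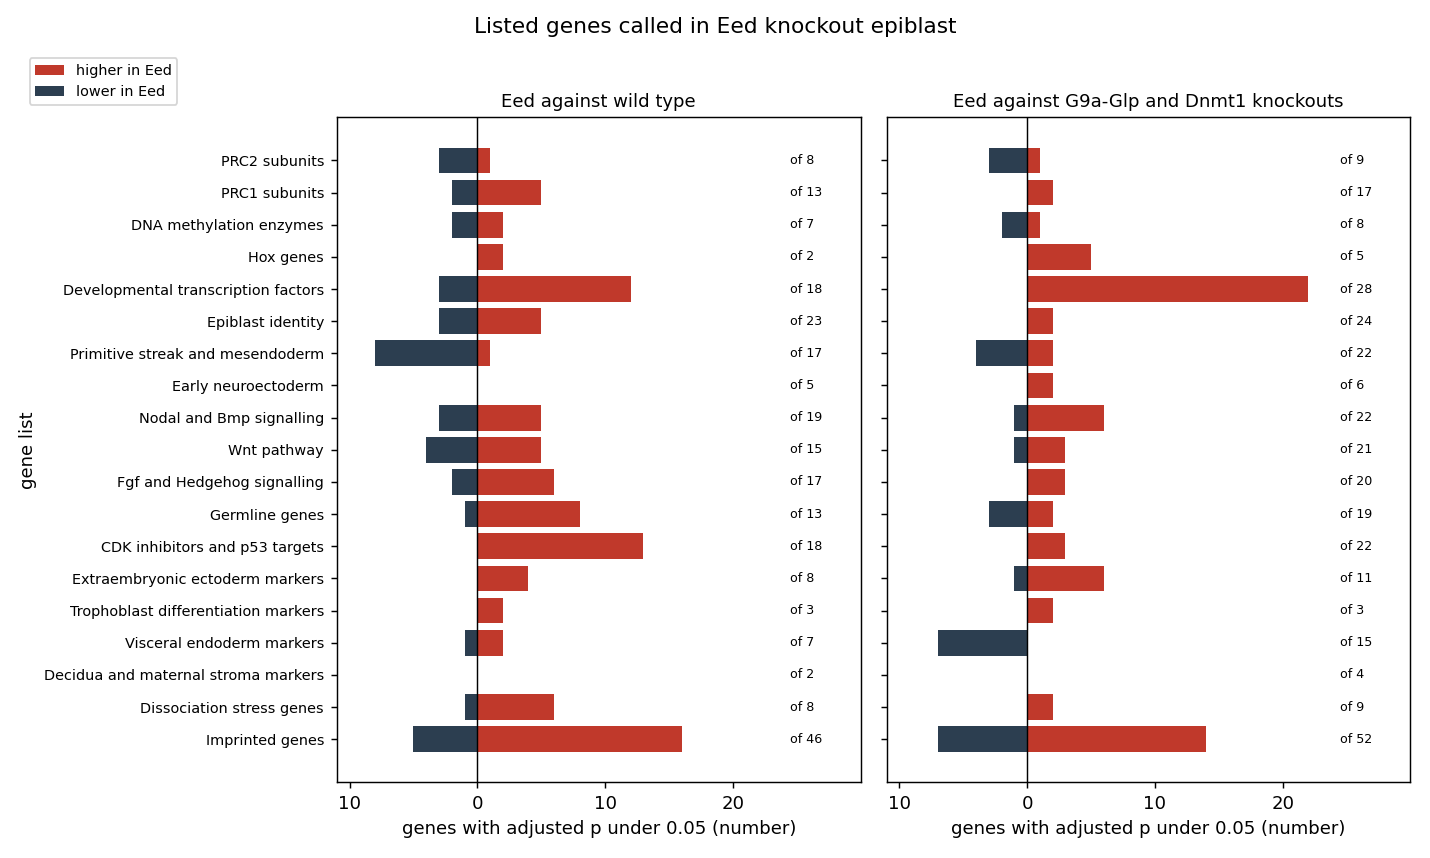
Number of listed genes with an edgeR adjusted p under 0.05, higher in Eed to the right and lower to the left, against the wild type (left panel) and against G9a-Glp and Dnmt1 knockouts (right panel); the number tested stands at the right of each row. Of the CDK inhibitors and p53 targets, 13 stand to the right in the left panel and 3 in the right. Of the developmental transcription factors, 18 and 28 were tested. Those silent in the wild type (left) or in the other knockouts (right) could enter only through their reads in Eed.

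Among genes of the Nodal and Bmp pathways, single members changed in both directions. Counts over the list lay near those over all genes against the wild type, but more were higher against the other knockouts. Nodal is a secreted signal that patterns the epiblast, Lefty1 and Lefty2 are its secreted inhibitors and direct targets, and Gdf3 is a co-ligand. Of 19 tested genes 5 rose and 3 fell (median log2 fold change 0.11), beside 19.4% and 16.7% of all tested genes. Against the other knockouts 6 of 22 were higher and 1 lower, beside 6.99% and 3.31% of all genes. Lefty1 (chromosome 1, 180935039 to 180938401) had 29.1, 131 and 308 CPM in Eed embryos and 0.373, 2.58 and 27.9 CPM in the wild type, with no overlap. Its log2 fold change was 4.15 ± 0.59 (edgeR adjusted p = 3.29e-05) and 3.11 ± 0.39 against the other knockouts (edgeR adjusted p = 6.77e-06). Lefty2, its neighbour on chromosome 1, had 68.97, 96.6 and 177 CPM against 0.338, 99.5 and 329.7 CPM and did not pass (-0.39 ± 0.66, edgeR adjusted p = 0.678), with the wild-type embryos spread over the whole range. Gdf3 rose from 0, 2.88 and 3.72 to 8.78, 31.8 and 67.4 CPM (3.82 ± 0.47, edgeR adjusted p = 9.33e-06), without overlap. Rnf2 embryos had 88.1 to 321 CPM of Gdf3 and 27.7 to 79.1 CPM of Lefty1. Bmp8b, a Bmp ligand made mainly by ExE, rose by 1.95 ± 0.54 (edgeR adjusted p = 0.00798), with Eed embryo 8 the highest at 37.4 CPM. Fst, the inhibitor of activins, fell from 19.96, 80.5 and 237 to 7.37, 15.8 and 43.9 CPM (-2.33 ± 0.40, edgeR adjusted p = 1.84e-04), and Chrd, a Bmp inhibitor of the node, fell by 2.03 on the log2 scale (edgeR adjusted p = 0.00775). Fst was also lower than in the other knockouts (-1.75 ± 0.33, edgeR adjusted p = 9.73e-04), and Chrd did not differ past the threshold there (-0.44 ± 0.56).

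In the Fgf and Hedgehog list, 2 targets of Hedgehog signalling, Ptch1 and Gli1, rose and a co-receptor, Gas1, fell. They are described because they were called. Ptch1 is the Hedgehog receptor and Gli1 a transcription factor of the pathway, and both are among its direct targets. Ptch1 (chromosome 13, 63508328 to 63573616) had 88.4, 119 and 146 CPM in Eed embryos and 13.2, 24.2 and 25.5 CPM in the wild type, without overlap, a log2 fold change of 2.32 ± 0.17 (edgeR adjusted p = 1.74e-08). G9a-Glp and Dnmt1 embryos lay between these groups in their means, at 51.2 ± 10.04 and 41.8 ± 14.3 CPM, and the difference from them was 1.29 ± 0.15 (edgeR adjusted p = 2.58e-06). Gli1 rose by 2.56 ± 0.52 (edgeR adjusted p = 7.73e-04), and Gas1, a Hedgehog co-receptor, fell from 3.04, 14.9 and 29.5 to 1.82, 5.05 and 8.62 CPM (-1.59 ± 0.41, edgeR adjusted p = 0.005001). G9a-Glp embryos had 2.18 to 7.14 CPM of Gas1 and Dnmt1 embryos 3.43 to 13.9 CPM. Over the Fgf and Hedgehog list, 6 of 17 rose and 2 fell (median 0.17), beside 19.4% and 16.7% of all tested genes. Of 20 tested, 3 were higher than in the other knockouts, beside 6.99% of all genes. Fgf15 rose by 1.78 ± 0.23 and Spry1, a feedback inhibitor of Fgf signalling, by 1.99 ± 0.47 (edgeR adjusted p = 1.40e-05 and 0.00277). The abundant Fgf5 and Etv5 did not pass, at 0.17 ± 0.13 and -0.02 ± 0.15. In the Wnt list 5 of 15 rose and 4 fell (median -0.44), beside the same shares of all genes. Against the other knockouts 3 of 21 were higher and 1 lower (median -0.10), beside 6.99% and 3.31% of all genes. The receptor Fzd6 rose (1.31 ± 0.22, edgeR adjusted p = 1.88e-04) and the receptor Fzd5 fell without overlap (-1.07 ± 0.19, edgeR adjusted p = 2.66e-04). Fzd5 ranged from 10.5 to 26.9 CPM in Eed and from 8.84 to 53.8 CPM in G9a-Glp embryos. R-spondins, which strengthen Wnt signals, split: Rspo1 and Rspo4 rose (1.44 ± 0.28 and 1.72 ± 0.45) and Rspo3 fell (-1.88 ± 0.53; edgeR adjusted p = 4.85e-04, 0.00562 and 0.00912).

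Among genes of the primitive streak more fell than rose, and levels varied strongly among wild-type embryos. The streak is where epiblast cells leave to form mesoderm and endoderm, and its genes come on around the stage sampled. Of 17 tested genes 8 fell and 1 rose, with a median log2 fold change of -0.92, beside 16.7% and 19.4% of all tested genes. The gene that rose was Lefty1. Without wild-type embryo 8, 7 fell and 3 rose, beside 18.4% and 22.6% of all genes. Mixl1, a homeodomain factor of the streak, had 0.721, 2.27 and 60.4 CPM in Eed and 4.06, 97.3 and 243 CPM in the wild type, with the ranges overlapping and Eed embryo 1 far above the other Eed embryos. It fell by 3.67 on the log2 scale (edgeR adjusted p = 0.001505). Cyp26a1, which breaks down retinoic acid, had 0.527, 4.55 and 92.5 CPM against 1.01, 116 and 258 CPM (-2.99 ± 0.75, edgeR adjusted p = 0.004199), and Eed embryo 1 was again the highest of its group. The summed level of the list ran from 111 to 1894 CPM in the wild type and from 203 to 1177 CPM in Eed, so the Eed range lay within that of the wild type. A difference in developmental stage between the groups was not tested. Against the other knockouts 4 of 22 were lower and 2 higher, beside 3.31% and 6.99% of all genes.

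Genes that mark the epiblast did not move together. Of 23 tested identity genes 5 rose and 3 fell (median 0.07), near the 19.4% and 16.7% of all tested genes. Against the other knockouts 2 of 24 were higher, beside 6.99% of all genes. Utf1, a chromatin protein of pluripotent cells, rose from 43.6, 67.1 and 162 to 362, 472 and 935 CPM (2.60 ± 0.27, edgeR adjusted p = 1.63e-06), but did not differ past the threshold from the other knockouts (0.25 ± 0.22, edgeR adjusted p = 0.549). Trh, a peptide hormone precursor, rose by 3.06 ± 0.42 and was also higher than in the other knockouts by 1.27 ± 0.35 (edgeR adjusted p = 2.58e-05 and 0.0191). Epcam and Tdgf1, a surface protein and the Nodal co-receptor, did not pass (0.01 ± 0.14 and 0.03 ± 0.35). Of 5 tested genes of early neuroectoderm, 0 passed by edgeR, 0 had an unadjusted p under 0.05 and 0 passed by DESeq2. Without the filter 2 of 16 rose, beside 8.32% of all genes in that fit. Against the other knockouts 2 of 6 were higher (median 0.91), beside 6.99% of all genes.

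Germline genes rose against the wild type but mostly did not stand above the other knockouts. Of 13 tested germline genes 8 rose and 1 fell (median 1.31), beside 19.4% and 16.7% of all tested genes. Against the other knockouts 2 of 19 were higher and 3 lower, beside 6.99% and 3.31% of all genes. Dppa3 (chromosome 6, 122626424 to 122630271), a protein of germ cells and early embryos that protects DNA methylation, had 46.1, 91.4 and 192 CPM in Eed and 3.29, 10.9 and 21.98 CPM in the wild type. It rose by 3.18 ± 0.35 (edgeR adjusted p = 3.04e-06) and was higher than in the other knockouts by 3.09 ± 0.34 (edgeR adjusted p = 1.39e-06), with no overlap in either comparison. Rnf2 embryos had 202 ± 128 CPM of Dppa3. Sycp1, a protein of the meiotic synaptonemal complex, rose by 4.50 ± 0.45 (edgeR adjusted p = 9.49e-07), while Dnmt1 embryos had 58.98 ± 23.7 CPM against 24.4 ± 9.99 in Eed. Tuba3a rose by 3.64 ± 0.67 (edgeR adjusted p = 3.43e-04) and did not differ past the threshold from the other knockouts (-0.04 ± 0.46). Of 7 tested DNA methylation enzymes 2 rose and 2 fell, beside 19.4% and 16.7% of all tested genes. Tet1, which oxidises methylcytosine, fell (-0.49 ± 0.12, edgeR adjusted p = 0.00241). Dnmt1, Dnmt3b and Dnmt3l also passed, at 0.54 ± 0.20, -0.42 ± 0.16 and 1.17 ± 0.44. They no longer did so in 10, 12 and 11 of 23 alternatives, most of them single embryos left out, in either group. Of 13 tested PRC1 subunits 5 rose and 2 fell, beside 19.4% and 16.7% of all tested genes. Of 17 tested, 2 were higher than in the other knockouts, beside 6.99% of all genes. Bmi1 rose without overlap (1.64 ± 0.27, edgeR adjusted p = 1.48e-04; 1.78 ± 0.36 against the other knockouts, edgeR adjusted p = 0.00185), and Rnf2, the catalytic subunit, fell (-0.66 ± 0.15, edgeR adjusted p = 0.00178). Rnf2 did not differ past the threshold from the other knockouts (-0.03 ± 0.13).

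Inhibitors of the cell cycle and targets of p53 rose in Eed against the wild type, and most did not stand above the other knockouts. Of 18 tested genes 13 rose (median 1.101), beside 19.4% of all tested genes. Against the other knockouts 3 of 22 were higher (median 0.18), beside 6.99% of all genes. Their summed level was 1498 to 2059.9 CPM in Eed, 658 to 996 in the wild type and 1388 to 1751 in G9a-Glp. The reciprocal wild type had sums of 683 to 2058 CPM, which overlap those of Eed. Cdkn1a, the p53 target that encodes p21, had 45.3, 106 and 124 CPM against 8.47, 19.6 and 44.2 CPM (1.97 ± 0.27, edgeR adjusted p = 2.58e-05). The reciprocal wild-type embryos ranged from 8.84 to 274 CPM and the Dnmt1 embryos 108 ± 53.3 CPM of the same gene. Cdkn1c (chromosome 7, 143458339 to 143461073), the imprinted inhibitor that encodes p57, had 17.7, 32.5 and 41.7 CPM against 3.72, 10.5 and 12.5 CPM, without overlap. It rose by 1.64 ± 0.25 (edgeR adjusted p = 5.96e-05) and stood above the other knockouts by 2.10 ± 0.25 (edgeR adjusted p = 3.12e-06), again without overlap. Rnf2 embryos had 31.4 ± 5.64 CPM, beside 29.6 ± 7.33 in Eed. Genes induced by tissue dissociation also rose, 6 of 8, with 1 falling, beside 19.4% and 16.7% of all tested genes. Of 9 tested, 2 were higher than in the other knockouts, beside 6.99% of all genes. Fos, an immediate early gene, had 1.58, 10.7 and 41.6 CPM against 0, 0.373 and 0.823 CPM (4.73 ± 0.71, edgeR adjusted p = 5.26e-05), and G9a-Glp embryos had 7.55 ± 3.901 CPM. The part of handling in these changes was not tested.

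**Figure D3:**
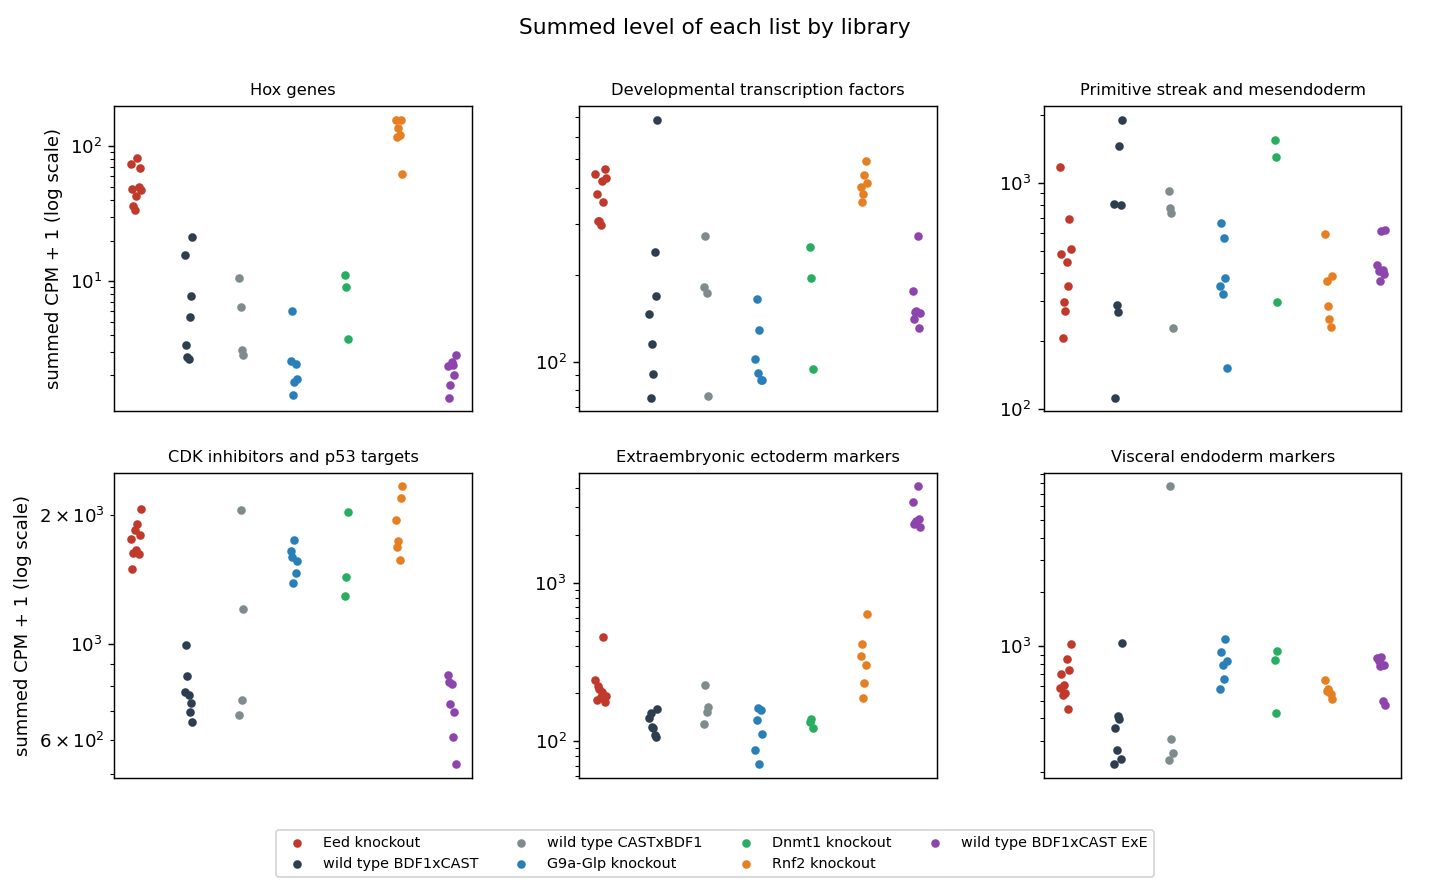
Summed CPM + 1 of 6 gene lists in each library on a log scale; each point is 1 library and colours are the groups, with wild-type ExE for scale. Hox genes are higher in all Eed and Rnf2 embryos than in every other group, wild-type embryo 8 has the highest developmental factor sum of all, and ExE markers stay several fold below ExE in every epiblast library.

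Among the 12 genes with the largest rise and no overlap, those outside the groups above were Slc7a7, Gfra4, Zbp1 and Mir6236. Slc7a7, an amino acid transporter, had 22.4, 43.99 and 121 CPM against 0, 0.432 and 3.72 CPM (5.38 ± 0.53, edgeR adjusted p = 9.49e-07), but did not differ past the threshold from the other knockouts (0.98 ± 0.45, edgeR adjusted p = 0.185). Gfra4, a receptor of the GDNF family, rose by 4.63 ± 0.47 and stood above the other knockouts by 3.02 ± 0.54, without overlap in either comparison (edgeR adjusted p = 1.30e-06 and 5.26e-04). Rnf2 embryos had 5.51 to 14.02 CPM of Gfra4, beside 7.75 to 19.6 CPM in Eed. Zbp1, a sensor of left-handed nucleic acid, and the entry Mir6236 rose by 4.50 ± 0.61 and 4.09 ± 0.69, and neither passed against the other knockouts (0.93 ± 0.38 and -0.23 ± 0.41). Of the genes named after the values of both comparisons were seen, Hspb1, a small heat shock protein, had 29.7, 58.5 and 85.3 CPM against 3.23, 7.103 and 13.6 CPM, and Fam162b had 17.04, 23.8 and 39.7 against 0, 1.72 and 4.06 CPM. Both were higher than in the G9a-Glp and Dnmt1 embryos without overlap (2.57 ± 0.23 and 2.71 ± 0.30). Rnf2 embryos had 68.3 to 250.5 CPM of Hspb1 and 14.3 to 60.8 CPM of Fam162b, so neither rise was particular to Eed. The largest falls without overlap, after Eed, were in A730063M14Rik, Fhl3, Pcca, Robo1, Mir5136, Rmdn2, Amt, Gja1, Btg1, Mapk1ip1l and Gatad1, with log2 fold changes between -2.34 and -1.64. Gja1, a gap junction protein, had 91.8, 163 and 255 CPM against 327, 465 and 728 CPM, and Robo1, an axon guidance receptor, had 9.88, 17.4 and 35.9 against 53.1, 64.1 and 105 CPM. None of these 11 genes differed past the threshold from the other knockouts, where their log2 fold changes lay between -0.68 and 0.35. Eed was the only named gene to fall without overlap in both comparisons. Several of the genes named here overlap other entries of the table, and without strand their reads cannot be told apart: Vax2 with Vax2os, Slc7a7 with Oxa1l, Gli1 with Arhgap9, Bmp8b with Oxct2b, Chrd with Thpo, Mir6236 with Gm39429 and Mir5136 with Lbhd1. Predicted genes met the same conditions in 17 rises and 10 falls.

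Markers of neighbouring tissues differed between the groups. The ExE markers summed to 177 to 455 CPM in Eed, 105 to 157 CPM in wild-type BDF1xCAST epiblast and 2262 to 4077 CPM in wild-type ExE. Reciprocal wild-type epiblast had 127 to 225 CPM and Rnf2 epiblast 187 to 633 CPM, and both overlapped Eed. G9a-Glp and Dnmt1 epiblast had 70.6 to 160 and 121 to 136 CPM. Eed embryo 8 was the highest Eed embryo, and the others reached 243 CPM. Of 8 tested ExE markers 4 rose, beside 19.4% of all tested genes. Without Eed embryo 8, 2 of 7 rose and 1 fell. Against the other knockouts 6 of 11 were higher and 1 lower (median 1.02), beside 6.99% and 3.31% of all genes, and 4 were higher in both comparisons. Among the markers that rose with all embryos were Sfmbt2 (3.09 ± 0.37), Bmp8b (1.95 ± 0.54) and Ascl2 (1.12 ± 0.37; edgeR adjusted p = 6.92e-06, 0.00798 and 0.0228), and Ascl2 did not pass without Eed embryo 8 or wild-type embryo 6. Visceral endoderm markers summed to 449 to 1028 CPM in Eed, 221 to 409.7 CPM in 6 wild-type embryos and 1043 CPM in wild-type embryo 8. The G9a-Glp embryos had 577 to 1101 CPM, and 1 reciprocal wild-type embryo reached 7701 CPM. Against the other knockouts 7 of 15 were lower, beside 3.31% of all genes. Of 7 tested against the wild type, 2 rose, beside 19.4% of all tested genes. Without wild-type embryo 8, 4 of 7 rose, beside 22.6%. Apoc2, an apolipoprotein of visceral endoderm, passed as lower (-3.24 ± 0.89, edgeR adjusted p = 0.00748), and did not pass without wild-type embryo 8, which had 167 CPM. Decidua markers summed to at most 37.1 CPM in Eed and 30.3 CPM in the wild type. The part of other tissues in the results was not tested.

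Imprinted genes, which are read mainly from a single parental allele in the tissues where the imprint acts, were compared for level first and for allelic share after that. Of 46 listed imprinted genes tested for level 16 rose and 5 fell (median 0.30), beside 19.4% and 16.7% of all tested genes. Against the other knockouts 14 of 52 were higher and 7 lower, beside 6.99% and 3.31% of all genes. H19, a maternally expressed noncoding RNA, had 42.02, 96.99 and 868 CPM in Eed and 16.4, 27.9 and 81.5 CPM in the wild type (2.50 ± 0.58, edgeR adjusted p = 0.002301), and Eed embryo 8, the embryo with the highest ExE marker sum, held the top value. Asb4 fell by 2.96 on the log2 scale (edgeR adjusted p = 0.00147), and Rian rose by 1.81 ± 0.33 (edgeR adjusted p = 2.85e-04).

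The allelic comparison asked whether the share of reads from the maternal allele changed. It called 96 of 9040 genes (1.06%), of which 31 gained maternal share (0.343%) and 65 gained paternal share (0.719%). Of 43 listed imprinted genes tested, 4 changed: Zdbf2, Slc38a4, Peg3 and Cd81. Of the 20 whose reads lay at least 70% on the listed parent in both wild-type crosses, 3 changed and 17 did not pass.

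Zdbf2 (chromosome 1, 63200358 to 63314576) is expressed from the paternal allele, and its maternal allele is known to be held silent with help from PRC2. Its maternal share was 40.8%, 55.6% and 72.2% (lowest, median and highest) in the 9 Eed embryos and 0%, 1.299% and 5.77% in the 7 wild-type embryos. Every Eed embryo was far above every wild-type embryo (log2 change in the maternal to paternal ratio 5.73 ± 0.39 SE, edgeR adjusted p = 9.68e-11). Maternal reads went from 0.664 ± 0.882 to 26.6 ± 10.2 CPM (SD), and paternal reads from 31.2 ± 8.94 to 19.6 ± 7.04 CPM. The total level of Zdbf2 did not pass (0.38 ± 0.20, edgeR adjusted p = 0.153). The maternal share was 47.2% ± 12.1 in Rnf2, 37.1% ± 12.5 in Dnmt1 and 10.4% ± 13.01 in G9a-Glp embryos, and the difference between Eed and G9a-Glp passed (edgeR adjusted p = 4.74e-05). Zdbf2 overlaps 1700039I01Rik, Gm11608 and Gpr1 in the table, and their reads cannot be told apart without strand. The annotation gives Zdbf2 2 start-site windows, shown because the upstream window begins its long transcript and the downstream one its shorter transcript. Both are 300 bases from RefSeq on GRCm38.p6, plus strand, with CG in capitals.
Zdbf2 upstream, chr1:63200108-63200407: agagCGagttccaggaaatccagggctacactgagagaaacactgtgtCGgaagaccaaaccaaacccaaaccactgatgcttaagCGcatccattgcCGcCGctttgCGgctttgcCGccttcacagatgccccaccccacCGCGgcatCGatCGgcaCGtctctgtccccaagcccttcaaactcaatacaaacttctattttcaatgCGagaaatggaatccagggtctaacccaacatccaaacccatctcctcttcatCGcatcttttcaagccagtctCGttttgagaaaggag
Zdbf2 downstream, chr1:63273019-63273318: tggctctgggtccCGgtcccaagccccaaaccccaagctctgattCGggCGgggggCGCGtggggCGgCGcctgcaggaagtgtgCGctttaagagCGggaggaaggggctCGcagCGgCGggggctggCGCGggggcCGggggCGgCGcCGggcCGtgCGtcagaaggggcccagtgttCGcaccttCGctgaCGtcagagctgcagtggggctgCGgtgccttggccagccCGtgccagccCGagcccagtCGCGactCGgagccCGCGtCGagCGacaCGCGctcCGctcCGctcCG
The upstream window holds 15 CG dinucleotides and the downstream window 38, a number that 4.95% of all windows reach. The data count reads over the whole gene and do not separate the 2 transcripts.

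Slc38a4 (chromosome 15, 96994823 to 97055956), an amino acid transporter with a noncanonical imprint, had a maternal share of 7.92%, 12.4% and 35.4% in Eed and 0.274%, 0.735% and 6.33% in the wild type, without overlap (edgeR adjusted p = 3.35e-05). It stayed mainly paternal in all 9 Eed embryos. G9a-Glp embryos had 30.6% ± 8.11 and Dnmt1 embryos 29.6% ± 4.98, and the difference between Eed and G9a-Glp did not pass (edgeR adjusted p = 0.289). Of the other listed noncanonical genes, Sfmbt2 had a share of 28.5% ± 5.42 in Eed against 58.2% ± 24.8 (n = 5) and did not pass (edgeR adjusted p = 0.07896), and Gab1, Jade1 and Smoc1 were read from both alleles in the wild type (47.6% ± 6.13, 47.7% ± 8.902 and 44.1% ± 31.2 maternal). Peg3, a paternally expressed zinc finger gene, had 0%, 4.17% and 14.9% in Eed and 0%, 0.996% and 2.26% in the wild type, with overlap (edgeR adjusted p = 0.0205). It did not pass in 7 of 22 alternatives, among them limma and leaving out Eed embryo 2 or 8 or wild-type embryo 6 or 7. Peg3 was 7.65% ± 11.5 maternal in G9a-Glp, 5.74% ± 4.66 in Rnf2 and 61.3% ± 3.81 in Dnmt1 embryos. The difference between Eed and G9a-Glp did not pass (edgeR adjusted p = 0.947). Cd81, a tetraspanin whose imprint is known from the placenta, was read from both alleles, 59.9% ± 2.12 maternal in Eed and 67.6% ± 3.58 in the wild type (edgeR adjusted p = 0.00553), and the reciprocal wild type had 53.4% ± 1.81. With limma Cd81 did not pass. Its maternal share was 62.9% ± 2.81 in G9a-Glp, 61.2% ± 2.26 in Dnmt1 and 57.7% ± 2.85 in Rnf2 embryos. Eed and G9a-Glp did not differ past the threshold in Cd81 (edgeR adjusted p = 0.681).

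Most canonical imprinted genes were still read from mainly 1 allele. Snrpn-Snurf stood at 0.0479% ± 0.144 maternal in Eed and 0.208% ± 0.385 in the wild type, with 8339 reads over the 9 Eed embryos. H19 was 85.3% ± 8.59 maternal against 82.03% ± 7.26, Phlda2 94.4% ± 3.36 against 93.3% ± 1.65 and Meg3 99.3% ± 1.28 against 99.5% ± 0.545. Impact, a paternally expressed gene, was 6.36% ± 5.600 maternal against 3.48% ± 1.38. None of these 5 genes passed (edgeR adjusted p of 0.216 to 0.945). Mcts2, another paternally expressed gene, ranged from 0% to 36.8% maternal among Eed embryos and did not pass (edgeR adjusted p = 0.0612). Mcts2 passed in 7 of 22 alternatives, among them sex as a covariate and leaving out Eed embryo 3, 5, 6 or 10. Kcnq1ot1 (0.532% ± 1.24 against 7.52% ± 10.8 maternal, edgeR adjusted p = 0.0644) passed toward the paternal allele without wild-type embryo 1, 2, 4 or 7, and Snrpn-Snurf without Eed embryo 5. The median share of reads from the normally silent allele, over the 19 canonical genes of this kind, was 3.98% ± 2.799 (SD, n = 9) in Eed and 1.29% ± 1.39 (n = 7) in the wild type. The difference of 2.69 percentage points is a description, and the ranges overlapped, from 0.938% to 10.7% and from 0% to 4.23%. Eed embryo 8 and wild-type embryo 8 were the highest of their groups. These genes, Zdbf2 and Peg3 among them, were taken for a share of at least 70% from the known parent in both wild-type crosses, so the wild-type values entered their choice and no test is given.

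**Figure D4:**
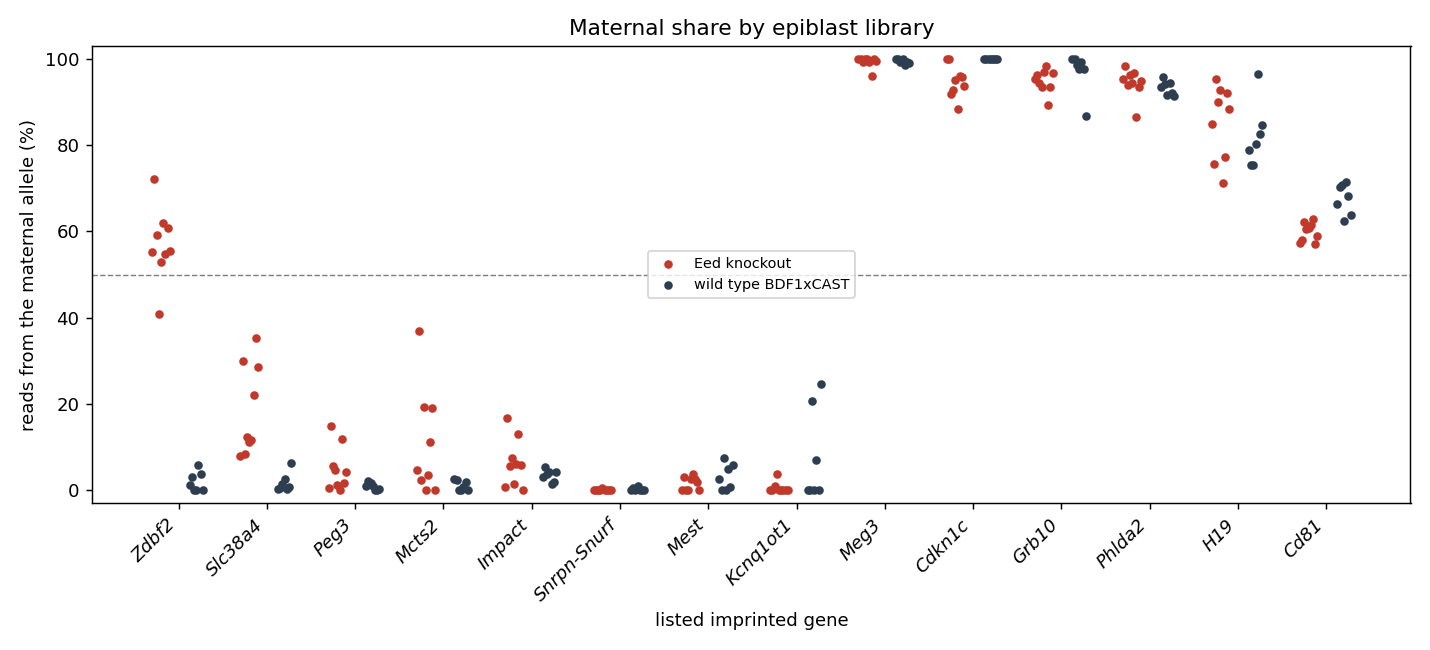
Share of reads from the maternal allele, in percent, for 14 listed imprinted genes; each point is 1 epiblast library with at least 10 reads of the gene, red for Eed and dark for the wild type, and the dashed line marks 50%. Zdbf2 moves from near 0% to between 40.8% and 72.2%, Slc38a4 moves part of the way, and Snrpn-Snurf, Meg3 and Phlda2 hardly move.

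Of the 96 allelic calls, 92 were outside the list. Gja1, whose level fell, went from 20.99% ± 4.15 to 45.5% ± 9.77 maternal (edgeR adjusted p = 6.53e-06), but G9a-Glp and Dnmt1 embryos had 50.8% ± 6.12 and 50.1% ± 6.95. The reciprocal wild type was 77.8% ± 2.402 maternal, so that the CAST allele gave more reads in both wild-type crosses. Fam3c, a secreted protein, went from 51.7% ± 4.71 to 33.02% ± 3.27 (edgeR adjusted p = 7.80e-08), and G9a-Glp embryos had 45.8% ± 2.88, a difference that passed (edgeR adjusted p = 1.33e-05). Rnf2 embryos had 33.3% ± 4.19 of Fam3c. The reads left at Eed itself were 31.9% ± 13.4 maternal (n = 8) against 62.8% ± 8.85 in the wild type (edgeR adjusted p = 9.11e-04), and limma did not call them. Against G9a-Glp, 7 of the 96 calls passed in the same direction, beside 0.377% of all genes in that test, and both comparisons share the Eed libraries. The other unlisted genes with the largest shifts and no overlap were Itga3, 4933412E12Rik, Tmem243 and Trmt13 toward the maternal allele, and Pabpc4l, Atp7b, Gstm2 and B4galt1 toward the paternal allele. All 8 favoured the same strain in both wild-type crosses, such as Pabpc4l at 77.8% ± 11.3 maternal with a BDF1 mother and 36.1% ± 20.7 with a CAST mother. Gstm2 did not pass in 15 of 21 alternatives.

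Genes that rose in Eed were read from both alleles for the most part. Of the 328 genes that rose against the wild type and were higher than in the other knockouts, 271 had at least 200 reads over the Eed embryos, and their median maternal share was 54.2%, beside 53.9% for all 7872 tested genes with as many reads. Between 30% and 70% lay 85.2% of them and 90.9% of all genes. Hoxd13 reads were 41.4%, 68.6% and 75% maternal over the 9 embryos. Dppa3 was more one-sided, at 82.5%, 87.3% and 93.4%, as was Hspb1, at 80.99%, 86.3% and 95.5%. Fam162b leaned to the paternal allele, at 10%, 30% and 33.3% maternal. A strain effect and a parental effect on these shares cannot be told apart in 1 cross.

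The change in Eed embryos differed by sex for 2 of 9514 genes (0.021%), Lefty1 and Fgf8. Lefty1 averaged 214 CPM in male and 88.9 CPM in female Eed embryos, and 1.44 and 18.6 CPM in male and female wild-type embryos. The male minus female difference of the log2 changes was 4.70 ± 0.69 (SE, edgeR adjusted p = 0.0108). Fgf8, a secreted growth factor of the streak, averaged 105 and 47.4 CPM in male and female Eed embryos and 7.94 and 64.9 CPM in the wild type, where embryo 8 had 142 CPM (3.96 ± 0.66, edgeR adjusted p = 0.0321). With 3 female wild-type embryos, 1 of them embryo 8, single libraries weigh heavily. Over both sexes Fgf8 did not pass (1.27 ± 0.54, edgeR adjusted p = 0.0689), and it rose by 2.30 without wild-type embryo 8 (edgeR adjusted p = 1.42e-04). In the test by sex, 0 genes passed by edgeR without wild-type embryo 1 or 7 (1319 and 1365 at an unadjusted p under 0.05), and 131 passed without wild-type embryo 4.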

How the data were processed

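RNA was copied with SMART-Seq v4 and sequenced as paired reads, per the labels' protocols. The submitters' processing notes name mm10, STAR 2.5.0 and HTSeq. The authors deposited 1 table with, for each library, the count of reads over strain polymorphisms per gene, the CAST fraction of those reads rounded to 2 decimals, and a score that is a signed −log10 p-value of a binomial test of the 2 alleles. Whole allele counts were recovered from fraction and score, matching 149001 of 149415 scored values within 0.0006 of the score, and the other values, with 5.35% of reads, were rounded from the fraction. Counts hold only polymorphic positions, so levels are not comparable between genes. X-linked genes were left out.

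Levels, and statements of overlap between groups, are CPM of autosomal reads without TMM factors. Expression was tested with edgeR 4.0.16 (TMM, filterByExpr, quasi-likelihood test, Benjamini-Hochberg adjusted p under 0.05), and allelic ratio with edgeR on the 2 allele counts of each library, keeping genes that reached 10 reads in 3 or more embryos per group. A log2 fold change is given ± SE. Library totals ran from 1288977 to 3422027 reads, and reads without molecular identifiers are not independent molecules. limma 3.58.1 (pseudocount 0.5000) and DESeq2 1.42.0 were alternatives, beside size factors, filters, sex, all BDF1xCAST groups in 1 fit, embryo number and each library left out. Each library is a separate embryo per the labels.

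The members, gene lists and tests were chosen with earlier results of these data known. Named were the PRC2 subunits, the 12 largest changes each way without overlap and with at least 5 CPM (not predicted genes), up to 5 called and 2 other abundant members of each list, and, for allelic ratio, called or monoallelic listed genes and 5 unlisted genes each way. The silent-allele share counted a gene in a library that held 20 or more of its reads. Some genes that the rule names are not reported here.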

Additional observations from a re-analysis of the deposited data

Results flagged for a closer look

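Single embryos stood far from the rest of their group in 48 of 275 checks, where chance alone gives about 1 in 20. Wild-type embryo 8 accounted for more of these than any other embryo. It had 19951 genes with reads (next 14609) from the fewest autosomal reads, 1288977, and the lowest Eed level of the wild type, 38.8 CPM. Signalling and patterning genes were highest there: Fgf8 at 142 CPM, Lef1 at 229.6, Rspo4 at 6.98, and Tbx15 and Vax2 at 1.55 each. So were the visceral endoderm genes Apoc2 at 167 CPM and Rbp4 at 15.5, and the placental markers Ets2 at 31.03 and Flt1 at 13.2. Chromatin and pluripotency genes followed, with Jarid2 at 204 CPM, Lin28a at 17.1 and Dnmt3l at 24.8. Of the genes that fell, A730063M14Rik stood at 137 CPM in that embryo, Gatad1 at 285, Mapk1ip1l at 212, Mir5136 at 72.2 and Fhl3 at 24.8. It also led in H19 at 81.5 CPM, Ier2 at 28.7 and Zbp1 at 2.33. Its maternal shares were 6.33% for Slc38a4 (the highest), 12.2% for Trmt13 and 44% for Eed (both the lowest).

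Eed embryo 8 had the highest values of the ExE markers Sfmbt2 (95.4 CPM) and Bmp8b (37.4 CPM), of H19 (868 CPM, next 243) and of Pcgf5 (63.7 CPM), and the lowest of the trophoblast gene Plbd1 (2.67 CPM). Eed embryo 1 led in the streak genes Mixl1 (60.4 CPM), Cyp26a1 (92.5 CPM) and Rspo3 (16.5 CPM) and in Peg3 (251 CPM). Eed embryo 10 led in Fos (41.6 CPM), Slc7a7 (121 CPM), Tuba3a (106 CPM), Tubb3 (47.7 CPM) and Ezh2 (228 CPM). Elsewhere, Hoxd13 was highest in Eed embryo 6 (25.7 CPM), Tal1 in Eed embryo 9 (21.2 CPM), and L3mbtl2 lowest in Eed embryo 9 (58.95 CPM). Wild-type embryo 2 was highest in Utf1 (162 CPM), Psrc1 (135 CPM), Dusp1 (31.5 CPM) and Slc7a7 (3.72 CPM), and wild-type embryo 3 in Tubb3 (20.2 CPM).

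The Eed change differed between male and female embryos for Lefty1, by 4.70 on the log2 scale, and for Fgf8, by 3.96, by edgeR's interaction test. Lefty1 passed in 15 of 17 alternatives and Fgf8 in 6, where its edgeR adjusted p reached 0.136.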

How the results depend on the processing

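The number of genes that differed in expression, 3434, stayed within 1.5 times of itself with DESeq2, other size factors, no filter, sex as a covariate and all BDF1xCAST groups in 1 fit, and ranged over 2954 to 3980 with a library left out. Against G9a-Glp and Dnmt1 embryos it was 1127, 839 to 1343 with a library left out. For allelic ratio, 96 genes became 23 with limma and 35 against G9a-Glp, and 75 to 122 with a library left out. The count that differed by sex became 243 without the filter and ranged over 0 to 131 with a library left out. The silent-allele difference was 2.198 percentage points at 50 reads and 1.85 to 3.18 with a library left out. The causes were not tested, apart from the fewer samples of the fits that follow.

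With the embryo number as a replicate block over the 12 libraries that share numbers, 1829 genes differed in expression and 42 in allelic ratio. The same libraries without the block gave 1859 and 37. Correlations of the deviations of embryos with the same number ran from -0.0682 to 0.167, so the embryos share only a number. The titles and the embryo numbers of Eed embryos 8, 9 and 10 do not match between epiblast and ExE, the embryo number was used, and the block that holds embryo 8 is in doubt. Of 2712 values of the 121 named genes under alternatives, 91 (in 20 genes) lost their call, 16 (in 5) gained one, and 0 changed direction past the threshold. Of 1149 values of the allelic ratio of 54 genes, 47 lost their call and 15 (in 5 genes) gained one. Depth limits the Hox genes, which rest on 1169 reads in Eed and 104 in the wild type.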
